A study of Mus musculus with 11 samples.

Results

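The 9 genes described here serve the uptake of lipid by cells. *Lpl* and *Lipc* encode lipases, *Vldlr* a lipoprotein receptor, *Cd36*, *Slc27a2* and *Slc27a4* proteins that move fatty acids across membranes, *Fabp1* and *Fabp2* fatty acid binding proteins, and *Pparg* a nuclear receptor. They are a named list headed by *Lpl*, drawn up with results of these counts already known, and *Lpl* was selected on its count difference between the diets in *Xbp1* fl/fl hepatocytes. That diet comparison is therefore given below as a description. No p is given there for any of the 9 genes, and nothing is read from how many passed the threshold. A p or an interval for *Lpl* is given only where no *Xbp1* fl/fl library entered the contrast. The fit covered every gene, so counts over the 9 members include *Lpl*. The 9 genes are 9 of 54232 in each count file, found by their Ensembl identifiers through the GENCODE M21 annotation, and all 9 were among the 13303 genes that passed the filter on low counts. *Vldlr* had only 2 to 16 counts in *Xbp1* fl/fl libraries on chow and passed the filter through the other groups.

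Hepatocytes were isolated from adult male C57BL/6 mice and purified by density centrifugation, and their RNA was sequenced to ask how deletion of *Xbp1* in the liver and a diet rich in fat and sugar change hepatocyte signalling. The *Xbp1* LKO mice lack *Xbp1*, which encodes a transcription factor of the unfolded protein response, where the albumin promoter drives Cre, and *Xbp1* fl/fl mice were the controls. Feeding with chow or with the HFS diet (high fat sugar, a Western diet with fructose and glucose in the drinking water) lasted up to 6 weeks. The 11 libraries were 3 of chow-fed *Xbp1* fl/fl, 2 of chow-fed *Xbp1* LKO, 3 of HFS-fed *Xbp1* fl/fl and 3 of HFS-fed *Xbp1* LKO hepatocytes, with 1 mouse behind every chow library and 2 pooled mice behind every HFS library. Every comparison of diets therefore sets single mice against pools, which the fit treats as equally variable.

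Lipoprotein lipase, the product of *Lpl*, splits the triglyceride of circulating lipoproteins into fatty acids at the surface of blood vessels, mainly in muscle and fat, and the adult liver makes little of it. Hepatic lipase, the product of *Lipc*, is made by hepatocytes and acts on lipoprotein remnants and HDL. Fatty acids that reach a hepatocyte cross its membrane with the help of CD36 and of the fatty acid transport proteins, are bound in the cytosol by fatty acid binding proteins, and are stored or oxidised. PPARγ, encoded by *Pparg*, switches on genes of lipid uptake and storage in adipocytes and is scarce in healthy liver.

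Total counts were 19191032 to 23888401 per library. *Xbp1* itself was at 194 to 221 CPM (counts scaled to library size by TMM factors) in chow-fed and 242 to 301 CPM in HFS-fed *Xbp1* fl/fl libraries, against 95.7 to 128 CPM and 97.3 to 135 CPM in the *Xbp1* LKO libraries, with no overlap between genotypes. A count per gene covers the whole transcript and not the deleted exon alone. Albumin, the leading hepatocyte marker, took 5.88% to 10.9% of counts in *Xbp1* fl/fl and 1.67% to 5.40% in *Xbp1* LKO libraries. The summed level of 15 endothelial markers was 65.6 to 161 CPM (chow, *Xbp1* fl/fl), 38.3 to 49.7 (chow, *Xbp1* LKO), 125 to 211 (HFS, *Xbp1* fl/fl) and 104 to 169 CPM (HFS, *Xbp1* LKO), and that of 18 macrophage markers 24.1 to 102, 27.3 to 41.1, 45.2 to 64.0 and 65.1 to 115 CPM in the same order. The upper ends in chow-fed *Xbp1* fl/fl mice, 161 and 102 CPM, came from replicate 1, which stood apart from the 2 other libraries of its group, so values without it are given where a result rests on it. In RNA from many cells, fewer cells of a type and less RNA per cell cannot be told apart, and nothing in the labels says how the animals were spread over preparations, so the p-values measure only the spread between these libraries.

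On a scale that allows genes to be compared, CPM per kilobase of the principal transcript, the 9 genes spanned a wide range. *Fabp1*, the liver type fatty acid binding protein, was the highest with 7076 ± 2174 CPM per kb (SD over the 11 libraries), above 99.9% of the genes tested. *Slc27a2*, which encodes the fatty acid transport protein FATP2, followed with 754 ± 147 CPM per kb, and the ranges of these 2 genes did not overlap each other or any other member. *Lipc* (107 ± 30.5 CPM per kb) and *Fabp2*, the intestinal type binding protein (95.4 ± 57.3 CPM per kb), came next and did not differ beyond their spread. *Cd36* (21.3 ± 10.3 CPM per kb), *Slc27a4*, which encodes FATP4 (12.3 ± 1.12 CPM per kb), and *Pparg* (10.3 ± 4.67 CPM per kb) followed, with ranges that overlapped one another, and that of *Cd36* (7.86 to 41.8) met the low end of *Fabp2* (28.7). *Lpl* stood at 2.78 ± 1.87 CPM per kb, above 40.6% of the genes tested, with a range of 0.379 to 5.52 that reached into that of *Pparg* (4.35 to 20.3). *Vldlr* was the lowest at 0.411 ± 0.425 CPM per kb, above 15.1% of the genes tested, and its range of 0.0145 to 1.46 met that of *Lpl*.

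The promoters of the 3 members that passed the threshold in a comparison of genotypes, *Lipc*, *Pparg* and *Vldlr*, are shown for the sequence just before a listed start of the transcript. They are the 250 bases before a RefSeq start, from the GRCm38.p6 table, at chr9:70952222-70952471 on the minus strand (*Lipc*), chr6:115421816-115422065 on the plus strand (*Pparg*, the one of its 3 listed starts with no annotated exon in this window) and chr19:27216234-27216483 on the plus strand (*Vldlr*). The *Pparg* start, at 115422066, lies inside the annotated gene, which begins at 115360951, so this window is not the one before the gene's first base. The last 5 bases of the *Lipc* window lie in an annotated exon, since the annotated gene reaches to 70952226, and the match nearest the start is partly in them. Counts per gene do not show which start was used. Of the 9 members, 8 were matched in the table, and *Lpl* was not. Capitals mark matches, on either strand, to CCAAT, the CCAAT box, to AGGTCA, the core site of many nuclear receptors, to CCACG, the core of an unfolded protein response motif, or to TATAAA, the TATA box.
Lipc: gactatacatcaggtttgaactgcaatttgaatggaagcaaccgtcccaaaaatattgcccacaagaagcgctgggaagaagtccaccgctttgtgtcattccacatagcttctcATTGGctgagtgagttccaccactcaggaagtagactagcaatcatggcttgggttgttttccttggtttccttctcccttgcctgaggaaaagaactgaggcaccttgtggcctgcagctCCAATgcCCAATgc
Pparg: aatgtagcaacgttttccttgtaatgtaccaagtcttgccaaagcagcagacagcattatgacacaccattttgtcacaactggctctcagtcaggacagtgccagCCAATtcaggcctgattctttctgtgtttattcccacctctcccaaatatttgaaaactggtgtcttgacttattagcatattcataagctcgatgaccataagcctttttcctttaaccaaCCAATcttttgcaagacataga
Vldlr: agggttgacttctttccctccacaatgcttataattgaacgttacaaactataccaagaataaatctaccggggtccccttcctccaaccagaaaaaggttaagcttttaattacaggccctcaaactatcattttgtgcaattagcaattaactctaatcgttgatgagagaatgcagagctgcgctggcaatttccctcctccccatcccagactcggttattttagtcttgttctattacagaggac
In these 3 windows, each match was to CCAAT or its reverse complement ATTGG. *Lipc* held 3 matches, at 135 to 131 bases (minus strand), 14 to 10 and 7 to 3 bases before the start, and *Pparg* held 2, at 144 to 140 and 22 to 18 bases before it. *Vldlr* held none of the 4 motifs. CCAAT was present in 33.8% of the 32851 promoter windows of this length, AGGTCA in 14%, CCACG in 28.3% and TATAAA in 12.4%, so these matches are common ones and describe the letters of the windows only.

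**Figure D1:**
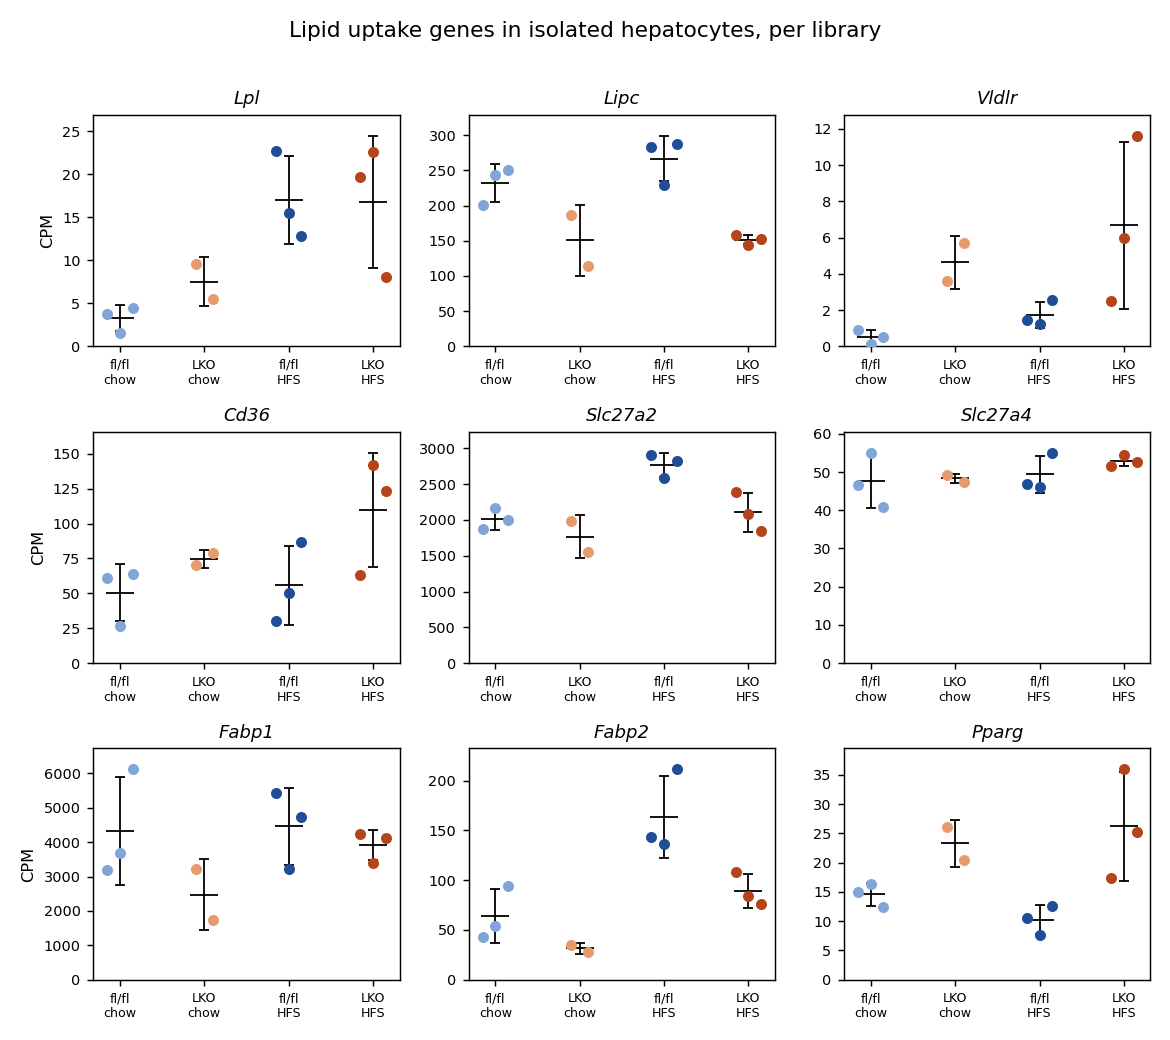
Level of each of the 9 lipid uptake genes in CPM (y axis, linear, a separate scale per gene) in each library of the 4 groups (points), with the group mean and SD (black bars). *Lpl* runs from 1.56 to 4.48 CPM in chow-fed and from 12.8 to 22.7 CPM in HFS-fed *Xbp1* fl/fl libraries, and *Vldlr*, *Cd36* and *Pparg* have higher mean levels in *Xbp1* LKO than in *Xbp1* fl/fl hepatocytes on either diet.

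The first comparison asked how *Xbp1* LKO hepatocytes differed from *Xbp1* fl/fl hepatocytes under each diet. On chow, 1 of the 9 genes passed the threshold, *Vldlr*, which was higher, while 4.75% of all 13303 genes tested passed it (1.73% higher and 3.02% lower). *Vldlr* was tested because it passed the low-count filter through groups other than these controls, so nothing is read from this count. On the HFS diet, 2 of the 9 passed, *Pparg* higher and *Lipc* lower, with 4.08% of all genes past the threshold (1.92% higher and 2.16% lower). The libraries of the genotypes did not overlap for 4 members that were higher (*Lpl*, *Vldlr*, *Cd36* and *Pparg*) and 2 that were lower (*Lipc* and *Fabp2*) on chow, where 15.4% of all genes were higher and 15.9% lower without overlap. *Lpl* was chosen through these same chow-fed *Xbp1* fl/fl libraries, so nothing is read from its lack of overlap. On the HFS diet, 1 member was higher (*Pparg*) and 3 were lower (*Lipc*, *Slc27a2* and *Fabp2*) without overlap, against 13.6% and 12.5% of all genes. The median log2 fold change of the 9 members was 0.02 on chow and -0.02 on the HFS diet, next to medians of 0.0024 and 0.0083 over all genes.

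The other comparison asked what the HFS diet changed within a genotype. In *Xbp1* LKO hepatocytes, none of the 9 genes passed edgeR's threshold, which 0.0601% of all genes did. With DESeq2, 1 passed (*Fabp2*), beside a larger share of all genes, which is given below with the processing. In edgeR, 2 of the 9 had an unadjusted p under 0.05, *Lpl* and *Fabp2*, as did 12.7% of all genes. The values of HFS-fed libraries lay above those of chow-fed libraries without overlap for 3 members (*Slc27a4*, *Fabp1* and *Fabp2*), next to 16.7% of all genes. In *Xbp1* fl/fl hepatocytes, where 0.428% of all genes passed, *Lpl* is the 1 member past the threshold because it was chosen for it, and it passed in 1 of the 11 fits with a library left out. In the same contrast, 4 members (*Lpl*, *Vldlr*, *Slc27a2* and *Fabp2*) lay higher without overlap, where 6.33% of all genes did. Nothing is read from these counts.

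**Figure D2:**
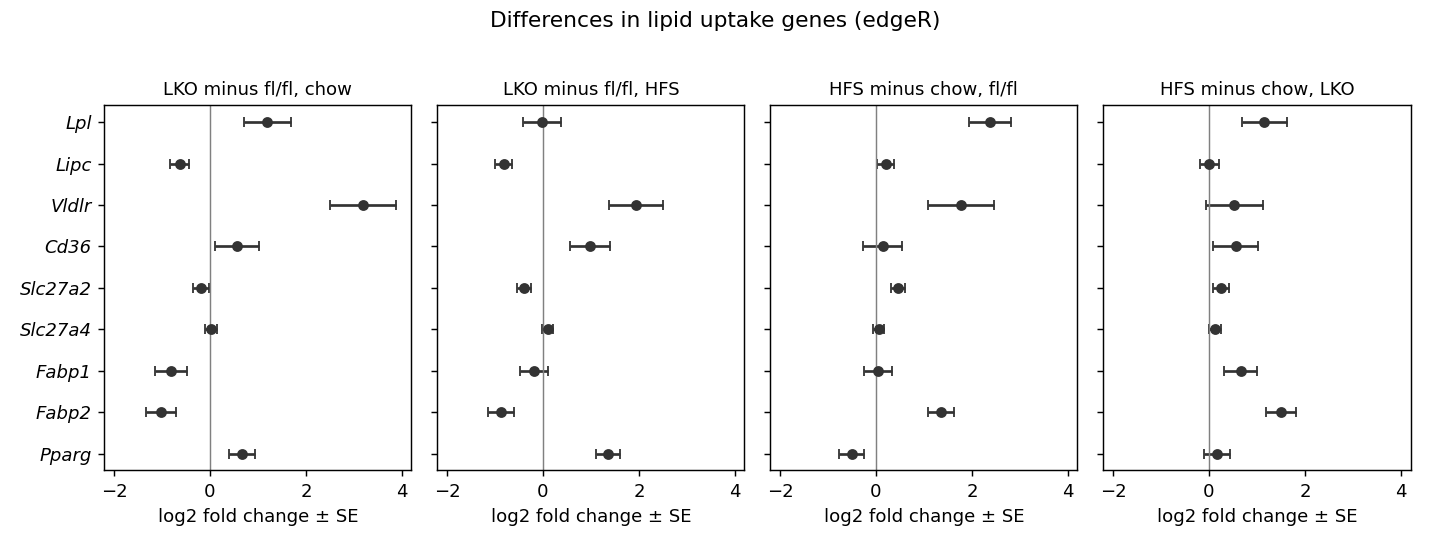
Log2 fold change (x axis, points) and its standard error (bars) of the 9 lipid uptake genes in the 4 comparisons, from edgeR. The highest value is that of *Vldlr* between genotypes on chow (3.19), and *Lpl* lies at 2.38 between diets in *Xbp1* fl/fl hepatocytes, at 1.16 between diets in *Xbp1* LKO hepatocytes and at -0.02 between genotypes on the HFS diet.

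Of the lipases, *Lpl* (ENSMUSG00000015568, GRCm38 chromosome 8, 68880491 to 68907448, plus strand) was measured at 3.70, 1.56 and 4.48 CPM in *Xbp1* fl/fl libraries on chow and at 22.7, 15.5 and 12.8 CPM in those on the HFS diet. Every HFS-fed library was above every chow-fed one, and the fitted log2 difference was 2.38 (SE 0.44), a 5.19-fold higher level. With each library left out in turn, this difference stayed between 2.05 and 2.68. Without replicate 1 of the chow-fed group, the library with more endothelial and macrophage RNA, it was 2.47. *Lpl* was chosen on this difference, so these values describe it and are no evidence for it.

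In *Xbp1* LKO hepatocytes, *Lpl* was at 9.51 and 5.51 CPM on chow and at 19.6, 22.6 and 8.05 CPM on the HFS diet. The groups overlapped, because HFS replicate 3 lay below chow replicate 1. The log2 fold change of 1.16 (SE 0.47, 95% interval 0.13 to 2.18) did not pass the threshold, with an adjusted p of 0.338 from edgeR's quasi-likelihood test and an unadjusted p of 0.0304. It ranged from 0.83 without chow replicate 2 to 1.60 without chow replicate 1.

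Between genotypes, *Lpl* was higher in both chow-fed *Xbp1* LKO libraries than in any chow-fed *Xbp1* fl/fl library, with a log2 difference of 1.20 (SE 0.48). On the HFS diet the ranges overlapped and the difference was -0.02 (SE 0.40). The chow value fell to 0.75 without *Xbp1* LKO replicate 1 and rose to 1.54 without replicate 2. The HFS value changed its sign with single libraries, between -0.30 and 0.31. The change of the genotype difference with diet was -1.22 (SE 0.63), and it contains the diet difference that singled out *Lpl*. Both genotype contrasts share *Xbp1* fl/fl libraries with that comparison, so no p or interval is given for any of the 3, and they are descriptions.

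Macrophages and endothelial cells are also sources or binding sites of lipoprotein lipase in tissues, so their markers are given beside it. In *Xbp1* fl/fl mice, all 15 endothelial markers had a positive log2 difference between diets, 2 of them without overlap, where 6.33% of all genes lay higher without overlap. Their summed levels were 65.6 to 161 CPM on chow and 125 to 211 CPM on the HFS diet. Of the 16 macrophage markers tested, 8 were positive and 8 negative. All 10 stellate cell markers tested were positive, none without overlap. The summed lymphocyte markers were at 0.896 to 1.77 CPM on chow and 3.36 to 4.02 CPM on the HFS diet, without overlap. *Cd4* was the largest part of this sum, at 0.498 to 0.883 CPM on chow and 2.29 to 3.18 CPM on the HFS diet. Of the 2 tested, *Cd4* passed edgeR's threshold (log2 fold change 1.99, SE 0.35, adjusted p = 0.0422). The other, *Ptprc*, overlapped between diets (0.349 to 0.607 and 0.407 to 1.67 CPM). The 8 markers not tested had at most 4 counts in any library. Chow replicate 1, with sums of 161 and 102 CPM, lay within or above the HFS ranges of both lists (125 to 211 and 45.2 to 64.0 CPM), and had an *Lpl* level of 3.70 CPM, against 12.8 to 22.7 CPM on the HFS diet. In *Xbp1* LKO mice, with 2 libraries on chow, 16.7% of all genes lay higher on the HFS diet without overlap. All 15 endothelial markers and 14 of the 16 macrophage markers did so, and all 10 stellate cell markers tested had positive differences, 9 without overlap. The summed lymphocyte markers of these mice, 1.88 and 2.23 CPM on chow and 2.28 to 5.10 CPM on the HFS diet, did not overlap either. The part of any of these cells in the *Lpl* levels of either genotype was not tested.

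Adipocytes are a main source of lipoprotein lipase, and 15 of their markers were listed, of which 7 passed the filter on low counts. *Lep* had no count in any library, and *Adipoq*, *Plin1*, *Retn*, *Adig*, *Trarg1*, *Acvr1c* and *Aqp7* had at most 7. Of the 7 tested, 5 had positive and 2 negative differences between diets in *Xbp1* fl/fl hepatocytes. *Slc2a4*, the insulin-regulated glucose transporter of fat and muscle, was higher without overlap, at 3, 4 and 3 counts on chow and 14, 32 and 61 on the HFS diet (log2 fold change 3.24, SE 1.08, adjusted p = 0.359, edgeR). *Cfd*, which encodes adipsin, had 2, 2 and 12 counts on chow and 5, 63 and 360 on the HFS diet, with overlap (4.60, SE 1.43, adjusted p = 0.316). Both were named after their values were seen, and *Slc2a4* passed the low-count filter through HFS-fed libraries, so these values are descriptions. For the other markers tested, chow and HFS means were 24.1 and 24.2 (*Lipe*), 137 and 136 (*Pnpla2*), 3815 and 2890 (*Car3*), 5.69 and 6.32 (*Cidec*), and 0.740 and 1.30 CPM (*Fabp4*). In *Xbp1* LKO hepatocytes 6 of the 7 were positive, with 0 to 31 counts of *Slc2a4* on chow and 58 to 276 on the HFS diet. The summed list, 1801 to 5451 CPM, was to 90.3% or more *Car3*, a carbonic anhydrase that liver also makes, and the other 14 genes summed to 138 to 212 CPM over the 11 libraries. The part of adipocytes in the *Lpl* levels was not tested.

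**Figure D3:**
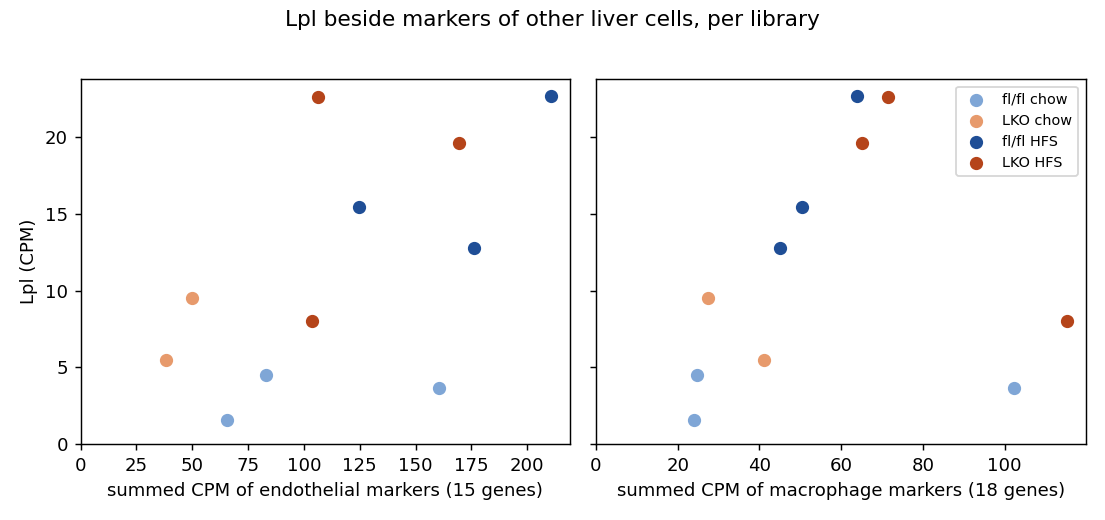
*Lpl* level (y axis, CPM) against the summed CPM of the endothelial markers (left) and of the macrophage markers (right) in each of the 11 libraries, coloured by group. The chow-fed *Xbp1* fl/fl library at 161 and 102 CPM of markers has 3.70 CPM of *Lpl*, while the 3 HFS-fed *Xbp1* fl/fl libraries lie between 12.8 and 22.7 CPM. In *Xbp1* LKO libraries, *Lpl* is at 5.51 and 9.51 CPM on chow and 8.05 to 22.6 CPM on the HFS diet. Their endothelial sums are 38.3 and 49.7 CPM on chow and 104 to 169 CPM on the HFS diet. The part of these cells in the *Lpl* levels was not tested.

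*Lipc* (ENSMUSG00000032207, chromosome 9, 70798128 to 70952226, minus strand) was at 201, 243 and 251 CPM in chow-fed and 284, 229.7 and 287 CPM in HFS-fed *Xbp1* fl/fl libraries. In *Xbp1* LKO libraries it was at 186 and 115 CPM on chow and at 158, 144 and 152 CPM on the HFS diet. Every *Xbp1* LKO library was thus below every *Xbp1* fl/fl library of either diet. The log2 fold change between genotypes passed the threshold on the HFS diet (-0.82, SE 0.17, a 1.76-fold lower level, adjusted p = 0.0256, edgeR quasi-likelihood test with Benjamini-Hochberg adjustment). It did not on chow (-0.62, SE 0.20, adjusted p = 0.0999 by the same test), where the value was -0.32 without *Xbp1* LKO replicate 2 and -1.02 without replicate 1. On the HFS diet the direction held with each library left out, at -0.76 to -0.91, but the adjusted p rose above the threshold without *Xbp1* fl/fl replicate 1 (log2 fold change -0.77, adjusted p = 0.0908), *Xbp1* fl/fl replicate 3 (-0.76 and 0.0945), *Xbp1* LKO replicate 2 (-0.78 and 0.115) or *Xbp1* LKO replicate 3 (-0.82 and 0.0803). Hepatic lipase is a product of hepatocytes, and hepatocyte markers moved with it: 9 of 10 had negative differences between genotypes on each diet, with medians of -0.76 on chow and -0.71 on the HFS diet. The part of this in the *Lipc* difference was not tested. The diet made little difference to *Lipc*, with log2 differences of 0.20 (SE 0.17) in *Xbp1* fl/fl and 0.01 (SE 0.19, 95% interval -0.41 to 0.43) in *Xbp1* LKO hepatocytes.

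*Vldlr* (ENSMUSG00000024924, chromosome 19, 27216484 to 27254231, plus strand), whose product binds VLDL and its remnants, was at 0.883, 0.116 and 0.498 CPM in *Xbp1* fl/fl libraries on chow, from 16, 2 and 10 counts. In the chow-fed *Xbp1* LKO libraries it was at 3.58 and 5.68 CPM, from 84 and 130 counts. With so few counts in the controls, *Vldlr* passed the low-count filter through the other groups, and the size of its fold change is uncertain. The genotypes did not overlap, and the log2 fold change of 3.19 (SE 0.69, a 9.12-fold higher level) passed edgeR's quasi-likelihood test (adjusted p = 0.025). It was 3.84 without *Xbp1* fl/fl replicate 1 (adjusted p = 0.0322), and it lost the threshold without *Xbp1* fl/fl replicate 2 (2.75, adjusted p = 0.0777), *Xbp1* fl/fl replicate 3 (3.18, adjusted p = 0.0646) or *Xbp1* LKO replicate 2 (2.82, adjusted p = 0.181). Endothelial cells also express *Vldlr*, and their summed markers were at 38.3 and 49.7 CPM in the *Xbp1* LKO libraries and 65.6 to 161 CPM in the *Xbp1* fl/fl libraries. Their part in the *Vldlr* difference was not tested.

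On the HFS diet, *Vldlr* was at 1.43, 1.22 and 2.55 CPM in *Xbp1* fl/fl and at 2.48, 5.95 and 11.6 CPM in *Xbp1* LKO libraries. The lowest *Xbp1* LKO library fell just under the highest *Xbp1* fl/fl library, and the log2 fold change of 1.94 (SE 0.56, adjusted p = 0.0803, edgeR) missed the threshold, which it passed with DESeq2 (adjusted p = 0.00934). Without *Xbp1* LKO replicate 1 the value was 2.34, past the threshold at an adjusted p of 0.0278. Between diets, the log2 difference was 1.78 (SE 0.68) in *Xbp1* fl/fl hepatocytes, from very few counts, and 0.53 (SE 0.59, adjusted p = 0.749, edgeR) in *Xbp1* LKO hepatocytes, where it turned to -0.13 without HFS replicate 3.

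Among the proteins that bring fatty acids in, *Cd36* (ENSMUSG00000002944, chromosome 5, 17781690 to 17888801, minus strand), the scavenger receptor and fatty acid translocase, varied widely within groups. It was at 61.1, 26.7 and 63.7 CPM in chow-fed and 30.1, 50.4 and 86.4 CPM in HFS-fed *Xbp1* fl/fl libraries, and at 70.3 and 79.1 CPM and 63.3, 142 and 124 CPM in *Xbp1* LKO libraries. Both chow-fed *Xbp1* LKO libraries lay above the chow-fed *Xbp1* fl/fl ones, but the margin was small and the groups overlapped on the HFS diet. The log2 fold changes between genotypes, 0.56 (SE 0.45, 95% interval -0.43 to 1.55, adjusted p = 0.549) on chow and 0.98 (SE 0.41, 95% interval 0.08 to 1.88, adjusted p = 0.244) on the HFS diet, did not pass edgeR's test, and the intervals are wide. In *Xbp1* LKO hepatocytes the diet gave 0.55 (SE 0.46, adjusted p = 0.650, edgeR), and in *Xbp1* fl/fl hepatocytes 0.14 (SE 0.41). Macrophages and endothelial cells express *Cd36* too, and their marker sums are those given above.

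Of the fatty acid transport proteins, which also couple fatty acids to coenzyme A, the 2 on the list, *Slc27a2* and *Slc27a4*, did not pass the threshold in the comparisons tested. *Slc27a2* (ENSMUSG00000027359, chromosome 2, 126552407 to 126588243, plus strand) was at 1871, 2163 and 2005 CPM in chow-fed and 2907, 2585 and 2829 CPM in HFS-fed *Xbp1* fl/fl libraries, and at 1981 and 1555 CPM and 2396, 2077 and 1846 CPM in *Xbp1* LKO libraries. HFS-fed *Xbp1* LKO libraries were all below HFS-fed *Xbp1* fl/fl libraries, by a log2 fold change of -0.40 (SE 0.15, adjusted p = 0.193, edgeR), while on chow the value was -0.19 (SE 0.17, adjusted p = 0.603) and turned to 0.13 when library totals were used in place of TMM factors. The diet difference was 0.46 (SE 0.15) in *Xbp1* fl/fl and 0.25 (SE 0.17, adjusted p = 0.569) in *Xbp1* LKO hepatocytes.

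*Slc27a4* (ENSMUSG00000059316, chromosome 2, 29802634 to 29817522, plus strand) was the steadiest member, at 41.0 to 55.1 CPM over all 11 libraries. Its log2 fold changes between genotypes were 0.02 (SE 0.13, 95% interval -0.26 to 0.31, adjusted p = 0.945) on chow and 0.10 (SE 0.12, 95% interval -0.15 to 0.36, adjusted p = 0.734) on the HFS diet in edgeR's test. The 3 HFS-fed *Xbp1* LKO libraries (51.6, 54.6 and 52.7 CPM) lay above the chow-fed ones (49.2 and 47.5 CPM), by a log2 fold change of 0.13 (SE 0.13, adjusted p = 0.714).

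Of the binding proteins, *Fabp1* (ENSMUSG00000054422, chromosome 6, 71199827 to 71205023, plus strand) was at 3185, 3677 and 6113 CPM in chow-fed and 5416, 3221 and 4741 CPM in HFS-fed *Xbp1* fl/fl libraries. In *Xbp1* LKO libraries it was at 3211 and 1743 CPM on chow and at 4225, 3404 and 4106 CPM on the HFS diet. The chow-fed groups overlapped by a small margin, and the log2 fold change between genotypes was -0.80 (SE 0.34, adjusted p = 0.216, edgeR) on chow and -0.19 (SE 0.29, 95% interval -0.83 to 0.46, adjusted p = 0.818) on the HFS diet, where it turned to 0.06 with library totals. All HFS-fed *Xbp1* LKO libraries were above the chow-fed ones, by a log2 fold change of 0.66 (SE 0.34, adjusted p = 0.444).

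*Fabp2* (ENSMUSG00000023057, chromosome 3, 122895072 to 122899506, plus strand) was at 42.5, 54.4 and 94.3 CPM in chow-fed and 143, 137 and 211 CPM in HFS-fed *Xbp1* fl/fl libraries. In *Xbp1* LKO libraries it was at 35.2 and 27.7 CPM on chow and 108, 84.0 and 75.7 CPM on the HFS diet. Each genotype was higher on the HFS diet without overlap and on each diet *Xbp1* LKO was lower without overlap. Between genotypes, the log2 fold changes were -1.02 (SE 0.32, adjusted p = 0.0965) on chow and -0.88 (SE 0.27, adjusted p = 0.105) on the HFS diet in edgeR's test, and both passed the threshold with DESeq2 (adjusted p = 0.0181 and 0.0260). The chow value was -1.24 (adjusted p = 0.0454, edgeR) without *Xbp1* fl/fl replicate 1 and the HFS value passed at an adjusted p of 0.0345 without chow-fed *Xbp1* fl/fl replicate 3. Between diets, the log2 difference was 1.36 (SE 0.28) in *Xbp1* fl/fl hepatocytes and 1.503 (SE 0.32, a 2.83-fold higher level, adjusted p = 0.152, edgeR) in *Xbp1* LKO hepatocytes, the latter with an unadjusted p of 0.000629 and an adjusted p of 0.000776 with DESeq2. An antisense gene, *4933405D12Rik*, overlaps *Fabp2*, and whether the counting used strand could not be settled, so reads of the pair cannot be told apart.

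*Pparg* (ENSMUSG00000000440, chromosome 6, 115360951 to 115490399, plus strand) was at 15.005, 16.4 and 12.4 CPM in chow-fed and 10.5, 7.69 and 12.6 CPM in HFS-fed *Xbp1* fl/fl libraries. In *Xbp1* LKO libraries it was at 26.1 and 20.5 CPM on chow and at 17.4, 35.9 and 25.2 CPM on the HFS diet. Every *Xbp1* LKO library was above every *Xbp1* fl/fl library of either diet. On the HFS diet the log2 fold change of 1.35 (SE 0.25, a 2.55-fold higher level) passed edgeR's test (adjusted p = 0.0138), and on chow that of 0.68 (SE 0.27, adjusted p = 0.198) did not. The HFS value stayed between 1.06 and 1.58 with each library left out, but missed the threshold without *Xbp1* fl/fl replicate 1 (1.37, adjusted p = 0.0534), *Xbp1* fl/fl replicate 2 (1.18, adjusted p = 0.0534) or *Xbp1* LKO replicate 2 (1.06, adjusted p = 0.0541).

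The macrophage marker sums of HFS-fed libraries also did not overlap between genotypes, at 45.2 to 64.0 CPM in *Xbp1* fl/fl and 65.1 to 115 CPM in *Xbp1* LKO. All 16 tested markers were positive, 7 without overlap, where 13.6% of all genes lay higher without overlap. Of the 7 adipocyte markers tested, 5 were positive and 2 negative on the HFS diet, none of them without overlap. *Adipoq*, *Plin1*, *Lep* and *Retn* had 0 to 3 counts, while *Slc2a4* had 14, 32 and 61 counts in *Xbp1* fl/fl and 125, 276 and 58 in *Xbp1* LKO libraries (log2 fold change 1.73, SE 0.77, adjusted p = 0.276, edgeR). *Slc2a4* was named after its values were seen. For the other markers tested, *Xbp1* fl/fl and *Xbp1* LKO means were 24.2 and 25.1 (*Lipe*), 136 and 124 (*Pnpla2*), 7.03 and 2.91 (*Cfd*), 2890 and 3806 (*Car3*), 6.32 and 7.88 (*Cidec*), and 1.30 and 1.56 CPM (*Fabp4*). The part of either cell type in the *Pparg* difference was not tested. The diet difference of *Pparg* was -0.51 (SE 0.26) in *Xbp1* fl/fl and 0.17 (SE 0.27, adjusted p = 0.835, edgeR) in *Xbp1* LKO hepatocytes. An antisense gene, *Gm44079*, overlaps *Pparg*, with the same limit as for *Fabp2*, and noncoding genes also overlap *Lipc* (Gm25149, Gm32017 and Gm3436) and *Slc27a2* (Gm26697).

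Whether the genotype difference itself changed with the diet was tested as an interaction. None of the 9 members and none of the 13303 genes (0%) passed edgeR's threshold, with 816 genes and 0 members at an unadjusted p under 0.05, and 29 genes, no member among them, passed with DESeq2. None of the 69 other pathway genes passed with either tool, with 3 at an unadjusted p under 0.05 in edgeR. *Vldlr* (-1.25, SE 0.90, 95% interval -3.21 to 0.72, adjusted p = 0.879) and *Pparg* (0.68, SE 0.37, 95% interval -0.14 to 1.498, adjusted p = 0.829) had the largest values of the 8 members other than *Lpl*. A threshold passed on 1 diet and missed on the other, as for *Vldlr*, *Lipc* and *Pparg*, is thus not shown to be a difference between diets.

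The wider pathway was read from 5 lists of 76 other genes, of which 69 were tested: handling of lipases, lipoprotein receptors, fatty acid transport and activation, PPAR receptors with their cofactors, and PPAR targets with lipid storage. On chow, 2 genes rose and 6 fell in *Xbp1* LKO hepatocytes, 8 of 69, and on the HFS diet 2 rose and 5 fell, 7 of 69, where 4.75% and 4.08% of all genes passed. In *Xbp1* fl/fl hepatocytes, 2 genes fell on the HFS diet, where 0.428% of all genes passed. In *Xbp1* LKO hepatocytes none passed with edgeR, where 9 had an unadjusted p under 0.05 next to 12.7% of all genes. With DESeq2, 2 passed, and its share of all genes is given below with the processing. The median log2 fold change of the 69 genes between genotypes was -0.25 on chow and -0.07 on the HFS diet, next to 0.0024 and 0.0083 over all genes.

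Among the 16 genes that handle lipases, *Furin*, a protease that cleaves lipoprotein lipase, fell by 1.00 on the log2 scale on the HFS diet (SE 0.16, adjusted p = 0.00582), which held with any library left out, and by 0.73 on chow (SE 0.18, adjusted p = 0.0384). The chow value passed only in the 3 fits without *Xbp1* fl/fl chow replicate 3, *Xbp1* LKO HFS replicate 1 or *Xbp1* LKO HFS replicate 2, and ranged from -0.88 to -0.63. *Lmf1* and *Sel1l*, which help lipoprotein lipase to fold and leave the endoplasmic reticulum, did not pass, with log2 fold changes of -0.29 and 0.30 on chow and -0.49 and -0.09 on the HFS diet. *Apoc2*, the cofactor of lipoprotein lipase, had only 5 to 42 counts, and *Gpihbp1*, its anchor on endothelial cells, 11 to 111 counts.

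Of the 13 lipoprotein receptor genes tested, *Lrp1*, the remnant receptor, and *Scarb1*, the HDL receptor, fell on the HFS diet, by 1.21 (SE 0.23, adjusted p = 0.014) and 0.80 (SE 0.19, adjusted p = 0.0444) on the log2 scale (edgeR). *Lrp1* lost the threshold without *Xbp1* fl/fl HFS replicate 3 (-1.18), *Xbp1* LKO HFS replicate 2 (-1.15) or *Xbp1* LKO HFS replicate 3 (-1.15), and *Scarb1* kept it in the 5 fits without *Xbp1* fl/fl chow replicate 1 or 3, either *Xbp1* LKO chow library or *Xbp1* fl/fl HFS replicate 1, with a range of -0.95 to -0.66 over the 11 fits.

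Among the 13 genes of fatty acid transport and activation tested, 1 rose on each diet, and 3 fell on chow and 1 on the HFS diet. *Slc27a5*, the bile acid and fatty acid ligase of hepatocytes, was 2.03-fold lower on the HFS diet (log2 fold change -1.02, SE 0.19, adjusted p = 0.0131, edgeR) and 2.02-fold lower on chow (SE 0.22, adjusted p = 0.0231). The chow value was lost without *Xbp1* fl/fl chow replicate 2 (-0.87) or *Xbp1* LKO chow replicate 2 (-0.73), and the HFS value without *Xbp1* fl/fl HFS replicate 3 (-0.97), *Xbp1* LKO HFS replicate 2 (-0.98) or *Xbp1* LKO HFS replicate 3 (-0.97). The acyl-CoA synthetases *Acsl3* (-1.01, SE 0.17, adjusted p = 0.008) and *Acsl5* (-1.06, SE 0.23, adjusted p = 0.025) fell on chow. The *Acsl3* call held with any library left out and the *Acsl5* call was lost without *Xbp1* fl/fl chow replicate 3 (-0.94) or *Xbp1* LKO chow replicate 2 (-0.75). *Acsl3* also fell with the diet in *Xbp1* fl/fl hepatocytes (-0.87, SE 0.15, adjusted p = 0.0351), a call kept only in the 4 fits without an *Xbp1* LKO chow library or *Xbp1* LKO HFS replicate 1 or 2, at -0.96 to -0.82 over the 11 fits.

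*Cav1*, which encodes the caveolar coat protein caveolin-1 and was listed for its role in fatty acid uptake, had the largest difference of all pathway genes named. It had 9 to 97 counts per *Xbp1* fl/fl library and 704 to 2546 per *Xbp1* LKO library, or 0.520 to 4.94 CPM against 30.03 to 94.7 CPM. The log2 fold changes of 4.99 (SE 0.65, adjusted p = 0.00351) on chow and 4.46 (SE 0.56, adjusted p = 0.00254, edgeR) on the HFS diet held with any library left out. *Cav1* is abundant in endothelial cells, whose 15 markers all had negative differences between genotypes on both diets, and the part of these cells in its level was not tested.

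None of the 10 PPAR receptors and cofactors tested passed edgeR's threshold in a comparison, with 1 to 3 of them at an unadjusted p under 0.05 in each, and 1 passed with DESeq2 between genotypes on the HFS diet. Their median log2 fold change was 0.0037 on chow and 0.03 on the HFS diet. Of the 17 PPAR target and storage genes tested, 1 rose on each diet: *Acot2*, a mitochondrial acyl-CoA thioesterase, by 2.10 (SE 0.38, adjusted p = 0.0108) on chow and 1.41 (SE 0.35, adjusted p = 0.046, edgeR) on the HFS diet. Its chow value was 1.00 without *Xbp1* LKO chow replicate 2 and no longer passed, and the HFS value passed only in the 2 fits without an *Xbp1* LKO chow library, with a range of 1.28 to 1.53 over the 11 fits. *Acot2* and its near-identical neighbour *Acot1* can share reads, so its value is uncertain. With DESeq2, 2 of the 17 passed on chow and 3 on the HFS diet. The shares of all genes past the threshold with DESeq2, given below with the processing, are larger than those with edgeR. Of the storage targets of PPARγ, *Plin4*, which encodes a coat protein of lipid droplets, was at 5.63, 3.41 and 15.6 CPM in chow-fed *Xbp1* fl/fl and 29.8 and 24.9 CPM in chow-fed *Xbp1* LKO libraries, without overlap (log2 fold change 1.72, SE 0.56, adjusted p = 0.112, edgeR). Its HFS-fed levels were 6.95, 6.36 and 15.1 CPM in *Xbp1* fl/fl and 30.1, 35.8 and 13.3 CPM in *Xbp1* LKO libraries (1.48, SE 0.52, adjusted p = 0.149). Neither difference passed edgeR's threshold, and nor did those of *Cidec*, *Mogat1* and *Fabp4*, which reached at most 9.78, 2.38 and 2.61 CPM.

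**Figure D4:**
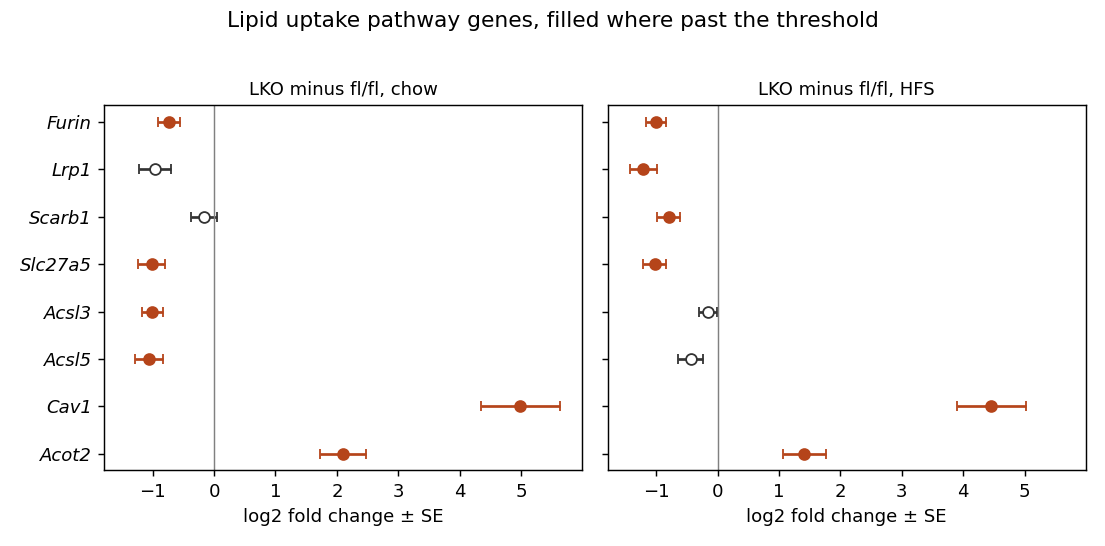
Log2 fold change (x axis, points) and standard error (bars) between *Xbp1* LKO and *Xbp1* fl/fl hepatocytes on chow (left) and on the HFS diet (right) for 8 other pathway genes past the threshold in a comparison, filled where past it in the panel shown. *Cav1* (4.99 and 4.46) and *Acot2* lie to the right of 0 and the 6 other genes to the left of it on both diets.

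The genes whose pattern was most like that of *Lpl* were sought among 11129 genes with a mean of at least 1 CPM, by Pearson's correlation of log2 CPM over the 11 libraries. The 6 closest were *Aida* (r = 0.91), *1700080G11Rik* (0.90), *Slc17a4* (0.90), *Trim7* (0.87), *Cyp4a12b* (0.87) and *Arsk* (0.86). *Slc17a4*, which encodes an organic anion transporter, was at 32.7 to 46.2 CPM in the 5 chow-fed and 59.4 to 89.8 CPM in the 6 HFS-fed libraries, without overlap. It was picked for its likeness to *Lpl*, itself chosen on a diet difference, so this separation is not a result of its own. With Spearman's rank correlation 3 of the 6 were again among the 6 closest, and with library totals 2 were. Among members, *Slc27a2* and *Fabp2* ran most closely together (r = 0.87), followed by *Vldlr* and *Cd36* (r = 0.80), while for *Lpl* and *Pparg* r was 0.0011. These correlations are descriptions over 11 libraries that share group means, depth and cell make-up.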

How the data were processed

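The authors deposited a whole-number count per Ensembl gene for each of 11 libraries, not normalized. The study's methods name kallisto and tximport, while the submitters' processing notes list cutadapt 1.13, STAR, HTSeq 0.6.1p1 and mm10, so which tool made the counts, and whether it used strand, is not settled. The methods name a stranded mRNA kit and the labels a total RNA kit. Further chow-fed *Xbp1* LKO animals were not analysed here.

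Counts were analysed with edgeR 4.0.16 in R 4.3.3: TMM factors, genes kept by filterByExpr (minimum count 10), a quasi-likelihood fit of the 4 groups to all 11 libraries, Benjamini-Hochberg adjustment over all 13303 genes and a threshold of 0.05. DESeq2 1.42.0 was an alternative. Intervals are 95%, from the fit's degrees of freedom. Of 54232 identifiers, 54165 had a GENCODE M21 symbol. Chi-square per degree of freedom between replicate libraries was 25.4 to 91.5, so counting error is the smaller part and no intervals for it are given. The code was tested on simulated counts. Groups came from the sample labels.

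The 9 members, the pathway lists and the marker lists were chosen with earlier results of these data known. Named genes are all members, the pathway genes past the threshold (up to 5 per direction with a mean of at least 1 CPM), the 6 most like *Lpl*, summed marker lists with markers at 0, and *Xbp1* and *Alb*. *Cidec*, *Plin4*, *Mogat1*, *Fabp4*, *Lmf1*, *Sel1l*, *Apoc2*, *Gpihbp1*, *Adipoq*, *Plin1*, *Retn*, *Adig*, *Trarg1*, *Acvr1c*, *Aqp7*, *Slc2a4*, *Cfd*, *Lipe*, *Pnpla2*, *Cd4* and *Car3* were named after their values were seen. Values of some other pathway genes past the threshold are not reported here. Summed cholangiocyte markers were 22.1 to 41.4 CPM, stellate 13.6 to 77.9 CPM, lymphocyte 0.896 to 5.10 CPM and hepatocyte markers 31892 to 159278 CPM.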

Additional observations from a re-analysis of the deposited data

How the results depend on the processing

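The chow-fed *Xbp1* LKO group of 2 libraries, and 2 to 16 counts of *Vldlr* in chow-fed controls, limit the precision. Counts below are members, then other pathway genes, past the threshold, and the cause of a change was not tested unless given. The share of all genes past the threshold in the same fit stands in brackets where a count of members moved. For the fits with 1 library left out, this share is not given, so nothing is read from their counts. On chow (1 and 8 between genotypes), DESeq2 gave 3 and 13 (8.5%), library totals 3 and 17 (22.6%), no low-count filter 7 and 19 (5.79% of 26016 genes, 11.1% of those tested in the report), only the groups compared 4 pathway genes, and 1 library left out 0 to 2 and 3 to 11. On the HFS diet (2 and 7), DESeq2 gave 4 and 13 (7.57%), library totals 12 pathway genes, no filter 5 and 21 (5.53% and 10.6%), only the groups compared 13 pathway genes, and 1 library left out 0 to 3 and 3 to 12. Between diets in *Xbp1* fl/fl (1 and 2), from which nothing is read for members, DESeq2 (1.42%) and library totals (0.436%) gave 2 members, RLE factors (0.331%) and only the groups compared (0.315%) 0 members, a filter of 1 CPM in 3 libraries 0 and 1 (0.39%), no filter 3 and 6 (1.92% and 3.71%), and 1 library left out 0 to 1 and 0 to 2. In *Xbp1* LKO (0 and 0), DESeq2 gave 1 and 2 (1.6%) and no filter 2 and 9 (2.78% and 5.37%), and for the interaction no filter gave 1 and 2 (1.03% and 2.01%). Library totals moved the median of all genes by 0.33 on chow and 0.27 on the HFS diet (log2), with 2685 of 3000 and 1288 of 1483 genes past the threshold higher, against 230 of 632 and 256 of 543. Leaving out a chow-fed *Xbp1* LKO library leaves 1, assumed to vary like the other groups. Of the 6 genes most like *Lpl*, 3 remained with Spearman's correlation and 2 with library totals.

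The replicate block gave 1 and 8 on chow, 2 and 8 on the HFS diet, 0 and 1 between diets in *Xbp1* fl/fl and 0 elsewhere. Same-numbered libraries are different animals whose deviations correlated at -0.20 to 0.23, so the numbers do not pair them. Direction changed for log2 values near 0. With library totals, these were *Slc27a2* on chow (0.13), *Fabp1* on the HFS diet (0.065) and *Lipc* between diets in *Xbp1* LKO (-0.026), the last also with no filter (-0.00057), only the groups compared (-0.0019) and the replicate block (-0.0049). With 1 library left out, *Slc27a4* on chow ranged from -0.072 to 0.14 (-0.0015 without *Xbp1* LKO replicate 1). Between diets in *Xbp1* LKO, *Lipc* ranged from -0.29 to 0.40 (-0.012 without HFS replicate 1), *Pparg* from -0.12 to 0.40 and *Vldlr* from -0.13 to 0.93. The interaction ranged from -0.50 to 0.20 for *Lipc*, -0.041 to 0.17 for *Slc27a4* and -0.25 to 0.37 for *Fabp2* (-0.016 without chow-fed replicate 2 and -0.013 without HFS-fed replicate 1 of *Xbp1* LKO).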
